A study of Mus musculus with 8 samples.

Results

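A set of 9 Hedgehog pathway genes was followed in the left and right heart fields of mouse embryos: the ligand Shh, the receptor Ptch1, the transducer Smo, the transcription factors Gli1, Gli2 and Gli3, the antagonist Hhip and the co-receptors Boc and Cdon. They were chosen by gene symbol and make up 9 of the 48526 genes counted. Reads of all 9 were found in the dissected pieces, and all 9 passed the filter on low counts, Shh at its limit. In edgeR's test, none of the 9 differed between left and right at an adjusted p under 0.05, or at the threshold used by the study, which asks for a 1.2-fold difference together with an unadjusted p no higher than 0.05. With limma-voom in place of edgeR, Shh alone passed that threshold, and with DESeq2 none of the 9 did. The study listed a gene if it passed with any of these methods, and by that rule Shh alone of the 9 passed here. Below, the study's threshold is applied to edgeR's values unless another method is named. In all 4 embryos Gli3 and Cdon read higher on the left and Gli1 read higher on the right, by fitted differences of less than 1.2-fold. Shh, the ligand, had the widest fold change between the sides and the widest spread between embryos.

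The libraries came from wild-type male C57bl6/J embryos at stage E8.5f. Heart and dorsal tissue were discarded, the remaining region at the level between headfolds and second somite was split into a left and a right piece, and poly-A RNA of each piece was sequenced. Each of 4 embryos, named L29-3, L43-5, L46-8 and L49-3, gave 1 left and 1 right library, so that all 8 libraries share genotype, strain, sex and stage, and differ in side and embryo. The comparison asks which genes are transcribed at different levels on the 2 sides of the heart field during heart looping.

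Hedgehog proteins are secreted signals that bind PTCH1 on the receiving cell. In their absence PTCH1 keeps SMO inactive and GLI3 is largely cut into a repressor. When ligand binds, SMO is released, GLI proteins act as activators, and Ptch1, Gli1 and Hhip are themselves transcribed as targets. In the embryo at this stage, Shh is made by the notochord, floor plate and foregut endoderm, and the mesoderm of the second heart field beside the foregut receives it.

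The total count per library ranged from 1147446 to 3520753, and 3 counts in a library corresponded to between 0.864 and 2.71 CPM, the count scaled to library size. All 8 second heart field markers were counted in every library, with a summed level of 372 to 586 CPM on the left and 501 to 580 CPM on the right. Isl1, a regulator of these progenitors, had 123 ± 24.7 normalized counts (SD, n = 8 libraries), and Nkx2-5, a cardiac transcription factor, 123 ± 45.2. Summed cardiomyocyte markers varied the most, from 368 to 3307 CPM, with the lowest level in L49-3 left. In these bulk libraries, fewer cells of a type and less RNA per cell cannot be told apart. An adjusted p under 0.05 was reached by 0.0103% of the 9744 genes tested, which is 1 gene, and the study's threshold by 3.05%, which is 297 genes. An unadjusted p under 0.05 was found for 425 genes, or 4.36%.

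The GLI genes, like Boc and Cdon, are paralogues, so their counts are meaningful only if reads can be assigned to 1 of them. The stretches of the length of a read, 130 bases, in which the coding sequences are most alike are shown for Gli3 against Gli2, because Gli3 had the lowest unadjusted p of the members between the sides. They are written 5′ to 3′ on the coding strand, from GENCODE vM21 transcripts of GRCm38, with bases that differ between the pair in capitals.
Gli3: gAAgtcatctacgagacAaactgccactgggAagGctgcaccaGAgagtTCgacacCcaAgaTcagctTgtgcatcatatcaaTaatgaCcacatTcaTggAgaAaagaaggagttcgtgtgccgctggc
Gli2: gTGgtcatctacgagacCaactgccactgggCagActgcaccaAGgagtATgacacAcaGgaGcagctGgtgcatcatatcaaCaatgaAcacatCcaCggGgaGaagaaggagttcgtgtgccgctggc
The Gli3 stretch covers coding positions 1423 to 1552 and the Gli2 stretch positions 1234 to 1363, counted from the first base of the start codon, in the part that encodes the zinc fingers. They share 111 of 130 bases, with no more than 25 identical bases in a row. Boc and Cdon also shared at most 111 of 130 bases. Gli1 shared at most 113 of 130 bases with Gli2 and 108 with Gli3. Shh shared at most 115 of 130 bases with Ihh, its nearest relative. A coding stretch of the length of a read therefore differed at 15 or more positions between any of these pairs. Exons of Shh, Gli1, Gli3 and Hhip overlap genes on the opposite strand, with these read totals: 8 for Gm26894 and 2 for 9530036O11Rik over Shh, 13 for Arhgap9 over Gli1, 25 for Gm6556 over Gli3 and 0 for Gm27820 over Hhip. Gm47200, with 265 bases in common with Gli1 exons, was not analysed here.

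Per length of exon, the transducer was the most abundant member and the antagonist the least. Smo had 60.2 ± 2.62 CPM per kb (SD, n = 8 libraries), Ptch1 26.6 ± 4.01 and Gli3 18.5 ± 2.14. Gli2 (13.99 ± 0.637) and Gli1 (13.6 ± 2.09) were not separated, since Gli2 was above Gli1 in 5 of 8 libraries. Cdon followed at 10.8 ± 0.950 CPM per kb, then Boc at 7.34 ± 0.941, Shh at 5.17 ± 2.498 and Hhip at 1.36 ± 0.363. Boc was above Shh in 7 of 8 libraries, and every other member was above the next in this order in 8 of 8. By these means, the receptor Ptch1 was 5.14 times as abundant per kb of exon as its ligand. The ratio depends on the length used: Ptch1 has 14185 exon bases but a longest transcript of 10383, whereas Shh has 2847 for both. Shh also ran from 2.33 to 8.28 CPM per kb over the libraries.

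**Figure D1:**
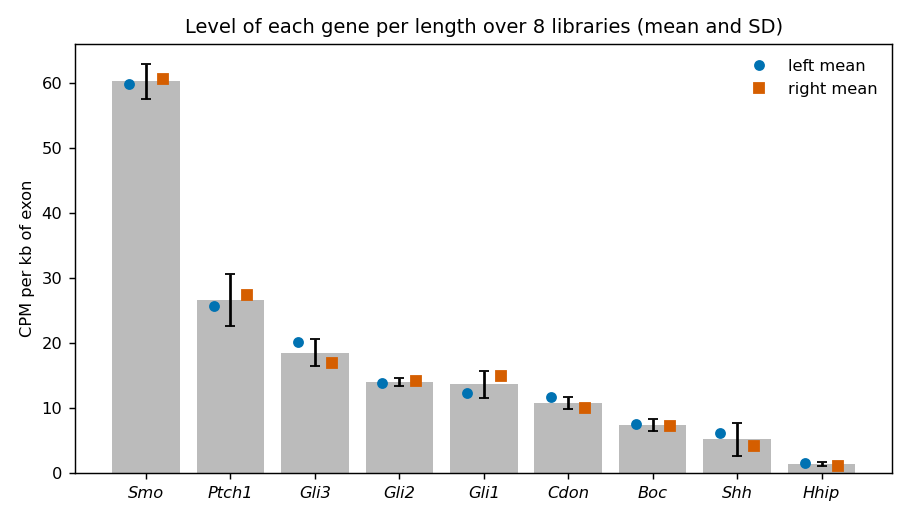
Level of each gene in CPM per kb of exon. Grey bars are means over 8 libraries, error bars the SD, blue circles the mean of the 4 left and orange squares the mean of the 4 right libraries. Smo stands at 60.2 and Hhip at 1.36, and the widest gap in CPM per kb between the side means is that of Gli3, at 20.1 on the left.

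Shh (ENSMUSG00000002633, chr5:28456815-28467256 in GRCm38 by GENCODE vM21, minus strand), the ligand, was read at low counts, between 14 and 67 reads per library. It reached 20 normalized counts in 4 of 8 libraries, the fewest that the filter accepts: the left of L29-3, L43-5 and L49-3 and the right of L49-3. In normalized counts it stood, left against right, at 39.7 against 18.6 (L29-3), 43.7 against 12.3 (L43-5), 13.02 against 17.8 (L46-8) and 32.5 against 39.9 (L49-3). The left library was the higher in L29-3 and L43-5 and the right in L46-8 and L49-3, so that the sides overlapped. The fitted log2 fold change of left over right was 0.71 (SE 0.360, 95% interval -0.08 to 1.49), with unadjusted p = 0.0729 (adjusted p = 0.987) in edgeR's quasi-likelihood test. The value depended on the embryos kept: without L43-5 it was 0.18 (unadjusted p = 0.619), whereas without L46-8 or L49-3 it was 0.97 (unadjusted p = 0.0184) or 1.03 (unadjusted p = 0.0243) and passed the study's threshold. Without L29-3 Shh did not pass it. The 4 log2 ratios ran from -0.43 to 1.76, and their exact sign-flip permutation test gave p = 0.5 (two-sided).

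Markers of the tissues that make Shh varied between libraries as well, and not all in the way that Shh did. T, which is transcribed in the notochord, stood, left against right in normalized counts, at 34.9 against 35.9 (L29-3), 53.5 against 13.3 (L43-5), 4.07 against 8.88 (L46-8) and 31.0 against 51.5 (L49-3). In 3 of the 4 embryos the same side was higher for T as for Shh, and in L29-3 T was level while Shh was not. Foxa2, of notochord, floor plate and endoderm, had log2 ratios of left to right of 0.02, 0.28, -0.97 and -0.93 in the same order of embryos. For Chrd, a BMP antagonist of the notochord, they were 1.76, 1.24, 0.93 and -0.10, on 82 reads in all. Over the 8 libraries, which are pairs from 4 embryos with a shared dissection and unlike depth, the log CPM of Shh had a Pearson correlation of 0.83 with T and 0.63 with Foxa2. Other markers of these tissues went either way. Some ran against Shh: the log2 ratios were -0.65, -0.66, 0.44 and 0.98 for Foxa1 and -0.52, -0.17, 0.52 and 0.51 for Hhex, both of the foregut endoderm, and -0.20, 0.08, 0.55 and 0.50 for Spon1 of the floor plate. Others had the sign of Shh in every embryo: Ntn1 (0.59, 0.22, -0.55 and -0.08) and Nog (0.37, 0.27, -0.54 and -0.38) of notochord and floor plate. So did Cdh1 (0.35, 0.21, -0.28 and -0.09) of the foregut endoderm. Nog did not pass the filter on low counts. The summed level of the 10 notochord and floor plate markers was 203 to 261 CPM on the left and 218 to 266 CPM on the right, with Noto under 5 reads in every library. The 10 foregut endoderm markers summed to 497 to 546 CPM on the left and 499 to 544 CPM on the right. In the same order of embryos, the log2 ratios of the sums were 0.17, 0.26, -0.14 and -0.06 for notochord and floor plate and -0.01, 0.09, -0.13 and 0.12 for foregut endoderm. The part of these tissues in the Shh values was not tested.

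**Figure D2:**
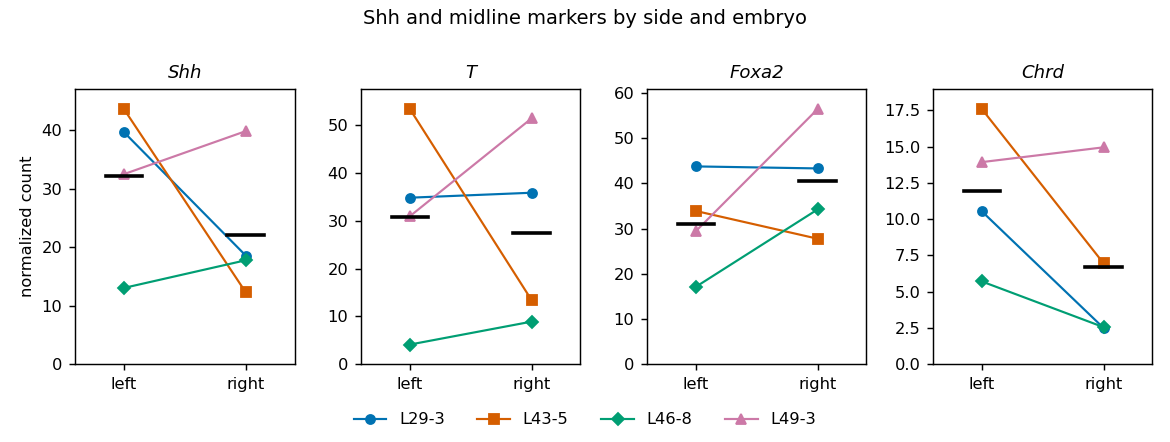
Normalized counts of Shh and of 3 midline markers, T, Foxa2 and Chrd, on the left and right (horizontal axis) of each embryo. Lines join the sides of an embryo and black bars are means of 4 libraries. In L43-5 (orange squares) Shh goes from 43.7 on the left to 12.3 on the right and T from 53.5 to 13.3, whereas in L49-3 (pink triangles) both are higher on the right.

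Ptch1 (ENSMUSG00000021466, chr13:63508328-63573598, minus strand), the receptor and a target of the pathway, stood, left against right in normalized counts, at 656 against 772 (L29-3), 795 against 563 (L43-5), 594 against 670 (L46-8) and 656 against 866 (L49-3). The right side was the higher in 3 of 4 embryos, and L43-5 went the other way. Shh was higher on the left in L43-5 too, but also in L29-3, where Ptch1 was higher on the right. The fitted log2 fold change was -0.07 (SE 0.118, 95% interval -0.32 to 0.19, unadjusted p = 0.590 in edgeR's test). Without L43-5 it was -0.27 (unadjusted p = 0.00532), past the study's threshold, with an adjusted p of 0.974. The log CPM of Ptch1 and Shh had a correlation of 0.67 over the 8 libraries. A run of 60 bases of Ptch1 exon also occurs in Serbp1, a gene with 22543 reads, and is shorter than a read, as is a run of 116 bases that Smo shares with Gm4066.

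Cdon (ENSMUSG00000038119, chr9:35421128-35507652, plus strand), a membrane co-receptor that binds SHH, stood, left against right in normalized counts, at 172 against 135 (L29-3), 164 against 147 (L43-5), 162 against 146 (L46-8) and 166 against 140 (L49-3). All 4 left libraries were above all 4 right libraries, and the left mean was 166 ± 4.33 against 142 ± 5.58 for the right (SD, n = 4). The log2 fold change was 0.22 (SE 0.0978, 95% interval 0.01 to 0.43), a 1.16-fold difference, with unadjusted p = 0.0453 (adjusted p = 0.987). Boc (ENSMUSG00000022687, chr16:44485049-44558897, minus strand), its paralogue and fellow co-receptor, had a left mean of 61.4 ± 7.80 and a right mean of 59.4 ± 8.65, a log2 fold change of 0.05 (95% interval -0.27 to 0.37, unadjusted p = 0.748). The Boc sides overlapped, and L43-5 had the lowest value on either side, 50.9 and 46.4.

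Hhip (ENSMUSG00000064325, chr8:79965851-80058006, minus strand), a membrane protein that binds Hedgehog ligands and withholds them, had 10 to 42 reads per library. In normalized counts it stood, left against right, at 29.2 against 12.4 (L29-3), 24.8 against 22.4 (L43-5), 31.7 against 17.8 (L46-8) and 21.7 against 23.3 (L49-3). The left was higher in 3 of 4 embryos and the sides overlapped. The log2 fold change was 0.50 (SE 0.277, 95% interval -0.10 to 1.11, unadjusted p = 0.0933, adjusted p = 0.987), and it was 0.30 (unadjusted p = 0.348) without L29-3.

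Smo (ENSMUSG00000001761, chr6:29735503-29761365, plus strand), the membrane protein that passes the signal into the cell, was the steadiest member, with a coefficient of variation of 4.33% over 8 libraries. Its left mean was 622 ± 34.4 and its right mean 629 ± 22.3 normalized counts, and the log2 fold change of -0.02 had a 95% interval of -0.16 to 0.12 (unadjusted p = 0.753). The interval leaves out a 1.2-fold difference in either direction. For comparison, the coefficient of variation was 4.51% for Gli2, 8.86% for Cdon, 11.7% for Gli3, 12.8% for Boc, 15.0% for Ptch1 and Gli1, 26.6% for Hhip and 48.3% for Shh.

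**Figure D3:**
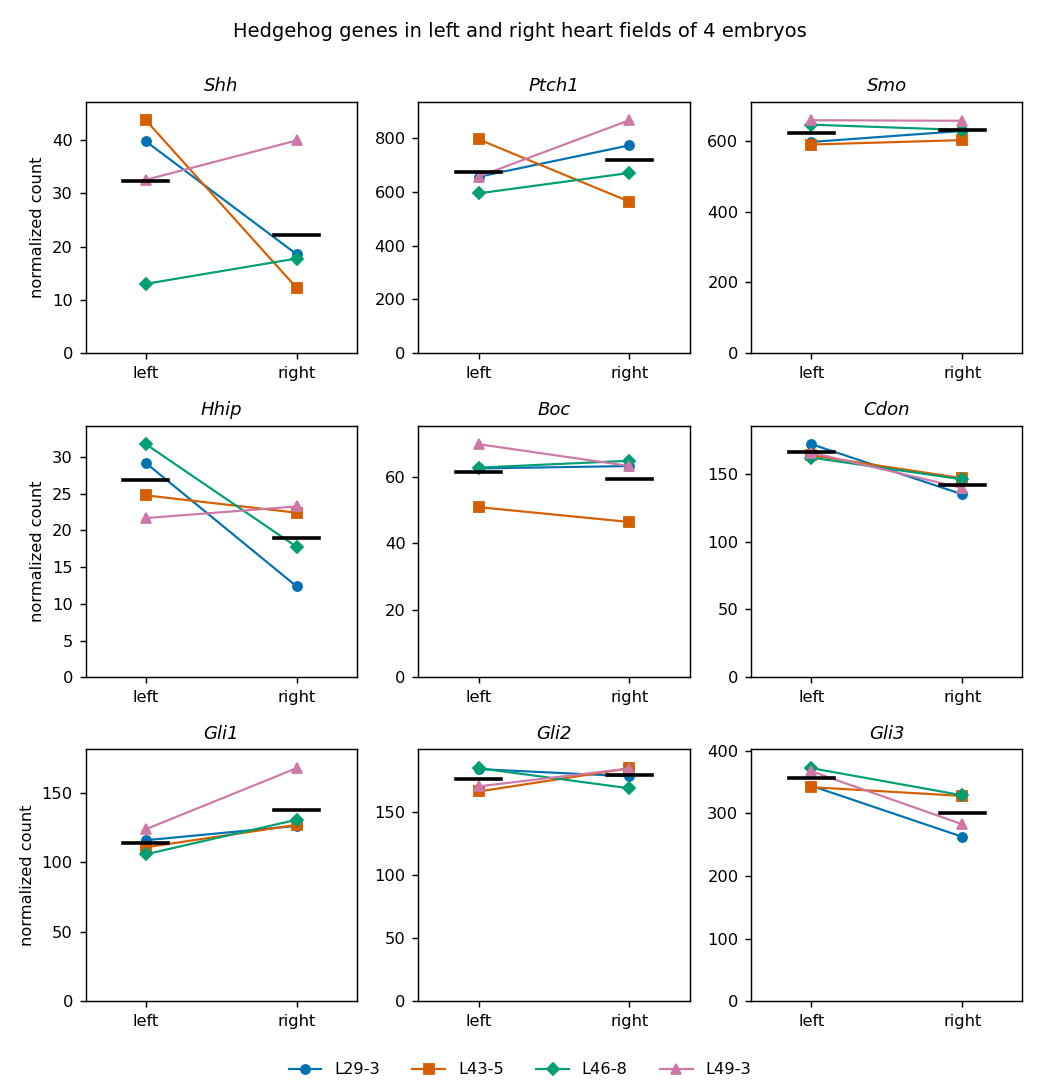
Normalized counts of the 9 genes on the left and right (horizontal axis) of 4 embryos, with vertical axes from 0. Lines join the sides of an embryo and black bars are means of 4 libraries. The lines of Gli3 and Cdon all descend from left to right, those of Gli1 all rise, and those of Shh cross.

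The fitted values of the 3 GLI genes did not share a sign. Gli3 (ENSMUSG00000021318, chr13:15463235-15730026, plus strand), the main repressor of the pathway when ligand is absent, stood, left against right in normalized counts, at 344 against 262 (L29-3), 342 against 328 (L43-5), 372 against 329 (L46-8) and 367 against 283 (L49-3). All left libraries were above all right libraries, with means of 356 ± 15.6 and 300.3 ± 33.2 (SD, n = 4). The log2 fold change was 0.23 (SE 0.0815, 95% interval 0.06 to 0.41), a 1.18-fold difference, and the unadjusted p of 0.0139 was the lowest of the 9 members. The adjusted p was 0.987.

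Gli1 (ENSMUSG00000025407, chr10:127329882-127341974, minus strand), an activator whose transcription is a standard readout of Hedgehog signalling, had the opposite order. It stood, left against right, at 116 against 126 (L29-3), 111 against 127 (L43-5), 106 against 131 (L46-8) and 124 against 168 (L49-3). All right libraries were above all left libraries, and the gap between the highest left and the lowest right library was narrow, from 124 to 126. The log2 fold change was -0.26 (SE 0.109, 95% interval -0.50 to -0.02, unadjusted p = 0.0350, adjusted p = 0.987), and the left mean was 114 ± 7.71 against a right mean of 138 ± 20.02 on the right. Without the pairing of the sides by embryo, the log2 fold change was -0.27 (unadjusted p = 0.0390), just past the study's threshold. Gli2 (ENSMUSG00000048402, chr1:118834132-119053619, minus strand), the main activator in many tissues, had a left mean of 176 ± 9.45 and a right mean of 179 ± 7.45. Its log2 fold change of -0.03 had a 95% interval of -0.23 to 0.18 (unadjusted p = 0.776), and its sides overlapped.

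**Figure D4:**
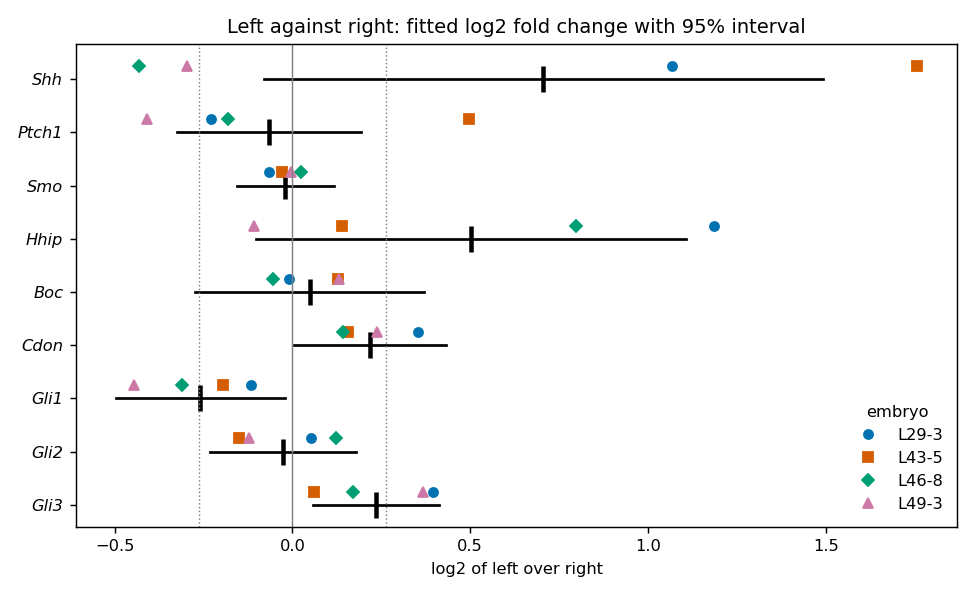
Log2 fold change of left over right for the 9 genes. Black ticks and bars are the fitted value with its 95% interval, coloured symbols the ratio in each embryo, and dotted lines mark a fold change of 1.2. The intervals of Gli3, Cdon and Gli1 leave out 0, and the 4 symbols of Shh spread from -0.43 to 1.76.

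Of the 9 members, 3 had an unadjusted p under 0.05, against 4.36% of all genes tested, and the same 3, Gli3, Cdon and Gli1, were those whose sides did not overlap, against 2.51% of all genes tested. They were also the only members with the same direction in 4 of 4 embryos, which held for 12.4% of all genes tested. Higher on the left in 4 of 4 embryos were 2 of 9 members (6.26% of all genes) and lower on the left 1 of 9 (6.11%). The exact sign-flip permutation test over embryos was at its two-sided limit for each of the 3, with 2 of 16 sign patterns as far from 0 as the data, the smallest share that 4 pairs allow and 1 that cannot reach 0.05. The median log2 fold change was 0.05 over the 9 members and -0.00 over all genes tested. Leaving out 1 embryo took each of the 3 above an unadjusted p of 0.05 at least once: Gli3 to 0.0743 without L29-3 and 0.0601 without L49-3, Gli1 to 0.0585 without L43-5, 0.0875 without L46-8 and 0.115 without L49-3, and Cdon to between 0.0554 and 0.164 in each case. With DESeq2 none of the 3 stayed under 0.05 (0.0745 for Gli3, 0.166 for Gli1 and 0.210 for Cdon), and without a filter on low counts Gli1 (0.0596) and Cdon (0.0513) did not. Conversely, Gli3 passed the study's threshold without L43-5 (0.31, unadjusted p = 0.00769) and Gli1 without L29-3 (-0.30, unadjusted p = 0.0407).

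Levels of neural tube markers stand here beside the GLI genes, which the neural tube also transcribes. Their summed level was 230 against 163 CPM, left against right (L29-3), 156 against 262 (L43-5), 87.7 against 251 (L46-8) and 359 against 439 (L49-3). The right was higher in 3 of 4 embryos, and the highest level, in L49-3 right, fell in the library with the highest Gli1. Of the 9 markers 6 were counted in every library and 7 could be tested, all 7 had a negative log2 fold change, and 2 passed the study's threshold: Sox1, a neural progenitor factor (-0.98, unadjusted p = 0.0167), and Pax6, a factor of eye and neural tube progenitors (-0.83, unadjusted p = 0.0142). Sox1 did not pass without L49-3 (unadjusted p = 0.0570), nor Pax6 without L43-5 (0.101) or L46-8 (0.0616), and with DESeq2 neither passed (0.0953 for Sox1 and 0.129 for Pax6). Sox2, another neural progenitor factor, had a left mean of 112 and a right mean of 110.1 normalized counts. In L29-3, where the neural sum was higher on the left, Gli1 was still higher on the right, by a log2 ratio of -0.12. The part of neural tissue in the Gli1 and Gli3 values was not tested.

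Between embryos, none of the 9 members differed at an adjusted p under 0.05 in edgeR's F test of the embryo terms, a level reached by 0.174% of all genes tested. The left and right libraries of an embryo serve as its replicates here. The p-values therefore rest on the spread between the sides of an embryo, not on independent replicates. The adjusted p ran from 0.665 for Boc and 0.677 for Shh to 0.9999 for Cdon, and no member had an unadjusted p under 0.05, against 9.99% of all genes. DESeq2 and limma-voom called none of the 9 either.

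The other genes of the pathway were read from a list of 44, in which 37 passed the filter on low counts. Of these, 2 were higher on the left at the study's threshold (1.63% of all genes tested), both with roles in release of the ligand, and 2 were lower on the left (1.42%). All 4 had an adjusted p of 0.987, although without a filter on low counts Ccnd2 had an adjusted p of 0.00955. Disp1, which exports lipid-modified Hedgehog proteins from the producing cell, stood, left against right in normalized counts, at 88.4 against 68.1 (L29-3), 80.8 against 68.8 (L43-5), 76.5 against 41.9 (L46-8) and 85.2 against 58.2 (L49-3). The sides did not overlap, and the log2 fold change was 0.47 (SE 0.150, unadjusted p = 0.00902). Scube3, of a family of secreted proteins that take up released Hedgehog ligands, stood in the same order at 91.6 against 70.6, 88.7 against 72.6, 107 against 52.0 and 86.7 against 58.2. Its sides did not overlap either, and the log2 fold change was 0.54 (SE 0.152, unadjusted p = 0.00411). Both passed the study's threshold whichever embryo was left out, although with DESeq2 Disp1 had unadjusted p = 0.0562. Scube1, the third release gene that could be tested, had a log2 fold change of -0.06 (unadjusted p = 0.634). Ihh, Dhh, Hhat, Disp2 and Scube2 did not pass the filter, with 3 reads of Dhh and 64 of Ihh over all 8 libraries, so that Shh was the only ligand gene of the 3 that could be tested.

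Evc, a ciliary protein that works with SMO, was lower on the left, with normalized counts, left against right, of 67.3 against 70.6 (L29-3), 34.6 against 59.2 (L43-5), 49.6 against 57.1 (L46-8) and 46.4 against 81.4 (L49-3). The right was higher in 4 of 4 embryos and the sides overlapped, and the log2 fold change of -0.45 (SE 0.178, unadjusted p = 0.0260) did not pass without L43-5 (unadjusted p = 0.148) or without L49-3 (unadjusted p = 0.0972). It was the only 1 of 20 regulators of SMO and GLI proteins to pass. Evc2, its binding partner, had a log2 fold change of 0.07 (unadjusted p = 0.600), and was picked for its link to Evc after its value was seen. The 3 most abundant regulators, the kinase genes Csnk1a1, Gsk3b and Csnk1e, had log2 fold changes of -0.01, -0.00 and -0.03.

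The co-receptor genes Gas1 and Lrp2 did not pass: the log2 fold change was -0.05 (unadjusted p = 0.701) for Gas1 and 0.12 (unadjusted p = 0.311) for Lrp2. Of 13 genes described as Hedgehog targets in embryos, 11 could be tested (not Foxf2 and Nkx2-2) and 9 of the 11 had a negative log2 fold change, against 5010 of 9744 genes tested, with a median of -0.17 against -0.00 over all genes. Nkx6-1, among them, is also on the list of neural tube markers. Tbx1 is on the second heart field list, and Foxa2 on the notochord and foregut lists. Negative values also prevailed among markers of neural tube (7 of 7 tested) and cardiomyocytes (6 of 6). The same held for second heart field (6 of 8) and paraxial mesoderm (4 of 5). It did not hold for foregut endoderm (4 of 9), notochord and floor plate (2 of 5) or surface ectoderm (2 of 5). Nor did it for endothelium (2 of 6) or neural crest (1 of 2). The cause of these signs was not tested. Of the 11 targets only Ccnd2, a D-type cyclin, passed, at -0.30 (SE 0.0971, unadjusted p = 0.00960). Its normalized counts were, left against right, 983 against 889 (L29-3), 969 against 1209 (L43-5), 903 against 1313 (L46-8) and 1107 against 1527 (L49-3). L29-3 went against the other embryos, and Ccnd2 did not pass without L46-8 (unadjusted p = 0.0545) or L49-3 (unadjusted p = 0.0637). Mycn, Ccnd1 and Foxc2, the most abundant of the rest, had log2 fold changes of -0.14, -0.13 and -0.17.

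**Figure D5:**
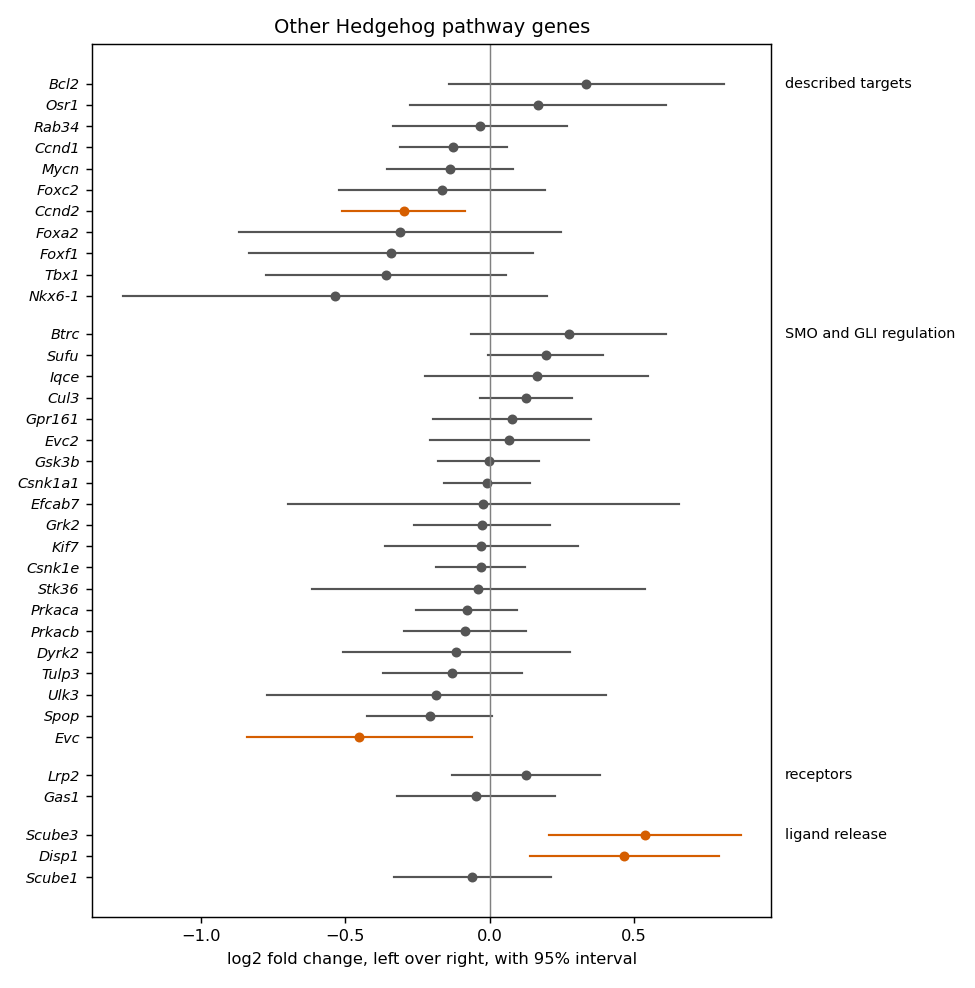
Log2 fold change of left over right, with the 95% interval, for other Hedgehog pathway genes tested, by role. Orange marks the 4 genes past the study's threshold, Scube3 and Disp1 on the left and Ccnd2 and Evc on the right, and the remaining genes are grey.

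Genes whose log CPM ran most like that of a member over the 8 libraries were found among the other 9743 genes tested. For Shh they were Epb41l4a (Pearson r = 0.96) and Grik3 (0.96). For Ptch1 they were Mtch2 (0.96), D6Wsu163e (0.93) and Maml2 (0.93), and for Gli1 Kcnip3 (0.97), Sgms1 (0.96) and Cfap20 (0.95). The libraries are pairs that share an embryo and its dissection but not depth, and these values are a description with no test.

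The promoter windows of Ptch1, Smo, Gli2, Gli3, Hhip and Cdon, from 250 bases before to 50 bases after the start of the gene in RefSeq, were searched on both strands for GACCACCCA, letters bound by GLI zinc fingers. None of the 6 held it, and it occurred in 83 of 32851 promoters of the same length, or 0.253%. At so low a share, none among 6 was the likely outcome and says nothing about GLI sites of these genes. Shh, Gli1 and Boc had no promoter window in the set and were not searched.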

How the data were processed

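The values deposited by the authors are raw counts of reads per gene. Per the study's methods and the labels, the libraries were made with an oriented poly-A kit from 15 ng of RNA and sequenced as paired reads of 130 bases. The reads were aligned to GRCm38 with HISAT2. Duplicates, which the study reports made up most of the reads, were excluded and the rest counted with featureCounts. The versions of these tools, and whether strand was used, are not given in the sources used here. Removal of duplicates can lower the counts of abundant genes, and counting without strand would add antisense reads.

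The sides were fitted in R 4.3.3 with edgeR 4.0.16 (TMM, quasi-likelihood test, embryo as a block, Benjamini-Hochberg adjustment over all genes tested) keeping the 9744 genes that reached 20 DESeq2-normalized counts in 4 or more of the 8 libraries. Normalized counts in the text are counts divided by DESeq2 size factors. Embryo ratios used TMM CPM with a pseudocount of 0.5, levels the union of GENCODE vM21 exons. limma 3.58.1 and DESeq2 1.42.0 served as alternatives. The fits were tested on simulated data with differences between the sides of 1.5-fold, 2-fold and 3-fold. At an adjusted p under 0.05, edgeR called 60%, 86% and 99% of these, with 26 false calls. Smaller differences, such as those of Gli3, Cdon and Gli1, were not simulated. Sides are paired because they come from 1 embryo. Deviations from the side means correlated at 0.167, 0.187, -0.022 and 0.431 within embryos L29-3, L43-5, L46-8 and L49-3, against -0.388 to 0.253 between embryos. No 2 libraries differed by sampling noise alone (chi-square per degree of freedom of at least 1.93). Precision follows from the counts, and floors of 3 counts cover counting error only.

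The 9 members, the pathway and marker lists and the tests were chosen with earlier results of these data known. The text names all members, pathway genes past the study's threshold, the 3 most abundant others per role, the 3 genes most like Shh, Ptch1 and Gli1, and markers beside a result. Adrbk1 was matched as Grk2. A few items that this rule names are not reported here.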

Additional observations from a re-analysis of the deposited data

Results flagged for a closer look

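Of 27 groups of 4 values examined for the 9 members, 2 held a library far from the other 3, where chance gives about 1 in 20. Gli1 stood at 168 normalized counts in L49-3 right, against 126 to 131 in the other right libraries. Boc stood at 46.4 normalized counts in L43-5 right, against 63.1 to 64.7 in the other right libraries.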

How the results depend on the processing

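The 7 members Shh, Smo, Gli1, Gli3, Hhip, Boc and Cdon kept their direction in every alternative, and the lowest adjusted p of any member in any of them was 0.758, so that none was called. Leaving out 1 embryo at a time, Gli2 ran from -0.076 to 0.025 and Ptch1 from -0.27 to 0.038, with the change of sign without L43-5 and without L49-3. No member passed the study's threshold in the main analysis. One did without a filter on low counts (Shh, 0.72), 1 with limma-voom (Shh, 0.85), 1 without the replicate block that pairs the sides (Gli1), and 1 to 2 when an embryo was left out.

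Over all genes, calls at an adjusted p under 0.05 numbered 1, against 34 without a filter, 0 with at least 10 counts in every library, 2 with DESeq2, 0 without the replicate block and 1 to 5 with an embryo left out. Genes past the study's threshold numbered 297, against 687 without a filter, 59 with DESeq2 and 268 to 379 with an embryo left out, and other pathway genes 4, against 7, 2 and 4 to 6. Calls between embryos numbered 17, against 641 without a filter, 9 with at least 10 counts, 48 with DESeq2, 4 with limma-voom and 0 to 236 with an embryo left out; no member was among them. With library size alone, 189 genes were higher on the left and 113 lower at the study's threshold, against 159 and 138.

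Log2 fold changes near 0 changed sign: Csnk1a1 was 0.0021 with library size alone and 0.0037 without a filter, and Gsk3b 0.0085 and 0.0099. With an embryo left out, the range was -0.075 to 0.030 for Csnk1a1, -0.047 to 0.080 for Gsk3b, -0.051 to 0.0063 for Csnk1e, -0.14 to 0.011 for Scube1, -0.0075 to 0.29 for Lrp2, -0.18 to 0.045 for Gas1, -0.21 to 0.016 for Mycn, -0.39 to 0.044 for Foxc2 and -0.46 to 0.77 for T. The cause of these changes was not tested. Among the 4 pathway genes past the study's threshold, Disp1 and Evc did not pass with DESeq2, nor Evc without the replicate block; Sox1 (unadjusted p = 0.0876) did not pass without that block either. Per kb of the longest transcript, Gli1 stood above Gli2, and the other members kept their place. At 10 to 67 reads per library, depth limits what can be shown for Shh and Hhip.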

Other observations

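The ratio of Gli3 to Gli1, a repressor and an activator of the pathway, was computed in each library after the values of both genes had been seen. On the log2 scale of CPM it was, left against right, 1.57 against 1.06 (L29-3), 1.62 against 1.37 (L43-5), 1.81 against 1.33 (L46-8) and 1.57 against 0.75 (L49-3). The left value exceeded the right in 4 of 4 embryos, by 0.52 ± 0.230 (SD, n = 4), and the left libraries did not overlap the right libraries. This outcome was fixed by the values of both genes, since every left library was above every right library for Gli3 and below it for Gli1. The ratio of Gli3 to Gli1, and its permutation test below, therefore add no result to those of the single genes. For Gli3 to Gli2 the left value exceeded the right in 4 of 4 embryos, by 0.27 ± 0.189, with left values of 0.90 to 1.11 and right values of 0.56 to 0.96. Gli2 differed little between the sides (log2 fold change -0.03), and Gli3 alone had a mean log2 ratio of 0.25. The ratio of Gli3 to Gli2 thus largely restates the values of Gli3. For Ptch1 to Gli1, both targets of the pathway, the left value exceeded the right in 3 of 4 embryos, by 0.19 ± 0.351. In the exact sign-flip permutation test over embryos, both Gli3 ratios were at the two-sided limit of 2 of 16 sign patterns, which cannot reach 0.05, and the Ptch1 ratio had p = 0.375.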
